A study of Rattus norvegicus with 20 samples.

Results

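The cadherin and protocadherin genes are 44 RefSeq accessions of the 18288 counted in this series. They were chosen by name from the authors' deposited tables: symbols made of Cdh and a number, and symbols beginning with Pcdh. They comprise 4 type I classical cadherins, 9 type II classical cadherins, 4 other cadherins, 7 non-clustered protocadherins, 10 beta protocadherins and 10 alpha protocadherins. The rule uses names and no measured value. The 10 alpha accessions were each paired in the deposited tables with all of 11 alpha symbols, so they have no single gene name there and are called here by accession. A further 20 accessions that only the RefSeq gene table names as cadherins or protocadherins lie outside the rule and are described in a separate paragraph.

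The tissues were prefrontal cortex and nucleus accumbens, taken at 13 weeks of age from male rats of the inbred strain Fischer344/Jcl, and RNA was measured as poly(A) sequencing counts. Between 21 and 39 days of age the rats ate either standard AIN-93G, a purified rodent diet, or a low-iron diet. The 4 groups were cortex with the standard diet, cortex with the low-iron diet, accumbens with the standard diet and accumbens with the low-iron diet, with 5 libraries each. Nothing in the labels ties each library to its own animal, and the p-values therefore reflect only how far these samples vary, part of which may be technical. Assigned reads ranged from 4340205 to 12971736 per library, and the members took 0.114 to 0.135% of them. A member at 0 reads could have up to 3 reads, which is 0.231 to 0.691 CPM depending on the library, where CPM is the usual count scaled to library depth (the levels that follow are also scaled for library composition).

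The labelled tissues were checked with marker lists. All 10 markers of cortical glutamatergic neurons tested were lower in the accumbens with either diet, and all 9 markers of striatal projection neurons tested were higher there. Some libraries stood apart from their groups. Cortex standard-diet replicate 4 had a summed level of 8015 CPM for 12 meningeal and fibroblast markers against at most 1401 CPM in the rest of its group, and cortex low-iron replicate 5 had 2006 CPM against at most 832 CPM. Accumbens standard-diet replicate 4 had 515 CPM for the 10 cortical markers, against 101 to 108 CPM in the other libraries of its group. Cortex standard-diet replicate 4 also had the lowest cortical glutamatergic sum of its group (1878 against 2824 to 2988 CPM). It had the highest sum of 8 septal and basal forebrain markers (232 against at most 91.6 CPM). Of that list, Zic2 and Prkcd averaged 52.5 and 30.5 CPM over the group, and Slc5a7 and Chat only 4.20 and 2.05 CPM. These means include replicate 4 and do not show which markers were high in it, and the rest of the list is not given here. The interneuron list went both ways in replicate 4. Gad1 (934 against 291 to 334 CPM), Calb2 (100.4 against 19.2 to 24.0 CPM) and Gad2 were highest of the group there. Pvalb (32.1 against 50.8 to 61.8 CPM), Sst (92.8 against 140 to 174 CPM), Vip, Lhx6, Cck and Lamp5 were lowest there. Npy was at most at 0.127 CPM in the group. The calls of members that changed without 1 of these 3 libraries are given both ways. In bulk tissue, fewer cells of a type and less RNA per cell cannot be told apart.

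Cadherins are calcium-dependent adhesion proteins. Classical cadherins bind catenins inside the cell and hold junctions and synapses together, mostly by binding the same cadherin on the facing membrane. Clustered protocadherins lie in tandem arrays of alpha, beta and gamma genes, and each neuron uses a random subset of them as a surface identity code that lets its own branches recognise each other. In the alpha and gamma arrays each variable first exon is spliced to constant exons shared by the whole array, whereas each beta gene has a single coding exon. Promoters of these arrays carry a conserved element that the insulator protein CTCF binds nearby or within, and the choice of promoter depends on DNA looping. Non-clustered protocadherins have their own loci and tend to mark particular brain regions and circuits.

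The beta promoters show what the members of an array share beyond their names. Promoter windows from RefSeq (GRCr8, 250 bases before to 50 bases after the gene start) existed for all 10 beta members, and the longest run of letters that all 10 windows held was the 10-letter word GGTGGCGCTG, present once in each in the direction of the gene. Stretches of 60 bases around it are printed for all 10, since the resemblance is visible only when they stand together. The capitals mark the word, and every stretch is from the plus strand of rat chromosome 18 in GRCr8.
Pcdhb2: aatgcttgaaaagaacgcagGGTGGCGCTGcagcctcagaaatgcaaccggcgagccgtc
Pcdhb3: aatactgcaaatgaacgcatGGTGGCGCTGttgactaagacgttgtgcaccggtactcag
Pcdhb4: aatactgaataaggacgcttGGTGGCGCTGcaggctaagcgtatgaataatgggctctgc
Pcdhb5: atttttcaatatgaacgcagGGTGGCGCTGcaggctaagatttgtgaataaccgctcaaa
Pcdhb6: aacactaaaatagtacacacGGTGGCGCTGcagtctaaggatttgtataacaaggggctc
Pcdhb8: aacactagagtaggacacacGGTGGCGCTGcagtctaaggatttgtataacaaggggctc
Pcdhb9: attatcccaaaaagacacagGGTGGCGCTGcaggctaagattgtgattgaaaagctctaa
Pcdhb12: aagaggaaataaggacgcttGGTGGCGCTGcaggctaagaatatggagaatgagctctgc
Pcdhb20: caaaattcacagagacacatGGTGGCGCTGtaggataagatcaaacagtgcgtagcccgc
Pcdhb21: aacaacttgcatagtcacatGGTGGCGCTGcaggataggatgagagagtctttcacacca
The stretches of Pcdhb12 (chr18:29413638-29413697) and Pcdhb21 (chr18:29492139-29492198) are those of the beta members that differed between regions with the standard diet. The outermost ones are Pcdhb2 (chr18:29279913-29279972) and Pcdhb21. Pcdhb6 (chr18:29320142-29320201) and Pcdhb8 (chr18:29339248-29339307) have identical letters from the word to the end of the stretch.

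The word began 52 to 98 bases before the gene start in 8 members, and 208 and 229 bases before it in Pcdhb8 and Pcdhb6. Only 5 positions outside the word were identical in all 10 stretches. On either strand, 74 of 33469 windows in the table held the word (0.221%), and 15 of those were among the 19 beta windows. These 15 include the 10 member windows that defined the word and had to hold it. None of 15 gamma windows and none of 14 windows of the cadherin and non-clustered protocadherin members held these letters. The alpha members have no single gene name, so alpha windows were not counted separately. The word was picked from these windows themselves, and a match is a description, not a binding site. All 10 beta members hold it by that choice, so its presence cannot tell members that differed between regions from those not called.

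The first comparison asked how the members differed between the 2 regions. With the standard diet 5 of the 40 members tested were higher in the accumbens and 11 were lower, by edgeR's quasi-likelihood test with a Benjamini-Hochberg adjusted p under 0.05. Over all 11612 accessions tested, 23.0% were higher and 24.0% lower, 47.0% in all, so the 16 called members (40.0% of those tested) are a share near that of all accessions. With the low-iron diet 6 of 37 members were higher and 12 lower (48.6% in all), against 30.1% and 29.0% of 11220 accessions (59.1% in all). The groups did not overlap for 12 members with the standard diet and for 14 with the low-iron diet, where 33.6% and 44.8% of all accessions had groups that did not overlap. The median log2 fold change of the members was -0.05 with the standard diet and -0.11 with the low-iron diet, beside 0.01 and 0.03 over all accessions tested. Values above 0 mean higher in the accumbens.

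Over all 11214 accessions tested with both diets, 4874 were called in both in the same direction and 0 in opposite directions. Of the 37 members tested with both diets, 14 were called in both, 10 of them lower and 4 higher in the accumbens. None of the members were called in opposite directions. The 10 were Cdh10, Cdh11, Cdh13, Cdh20, Pcdh8, Pcdh19, Pcdh20 and 3 alpha accessions, and the 4 were Cdh8, Cdh19, Pcdh17 and Pcdhb12. Another 4 passed with the low-iron diet and not with the standard diet, and the interaction test reported at the end called none of them. Cdh1 and Pcdhb21 passed with the standard diet and were not tested with the low-iron diet because too few libraries reached the minimum count. Cdh16, Cdh17, Cdh26 and Pcdhb2 were too low for both tests. The 2 region comparisons share no library.

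**Figure D1:**
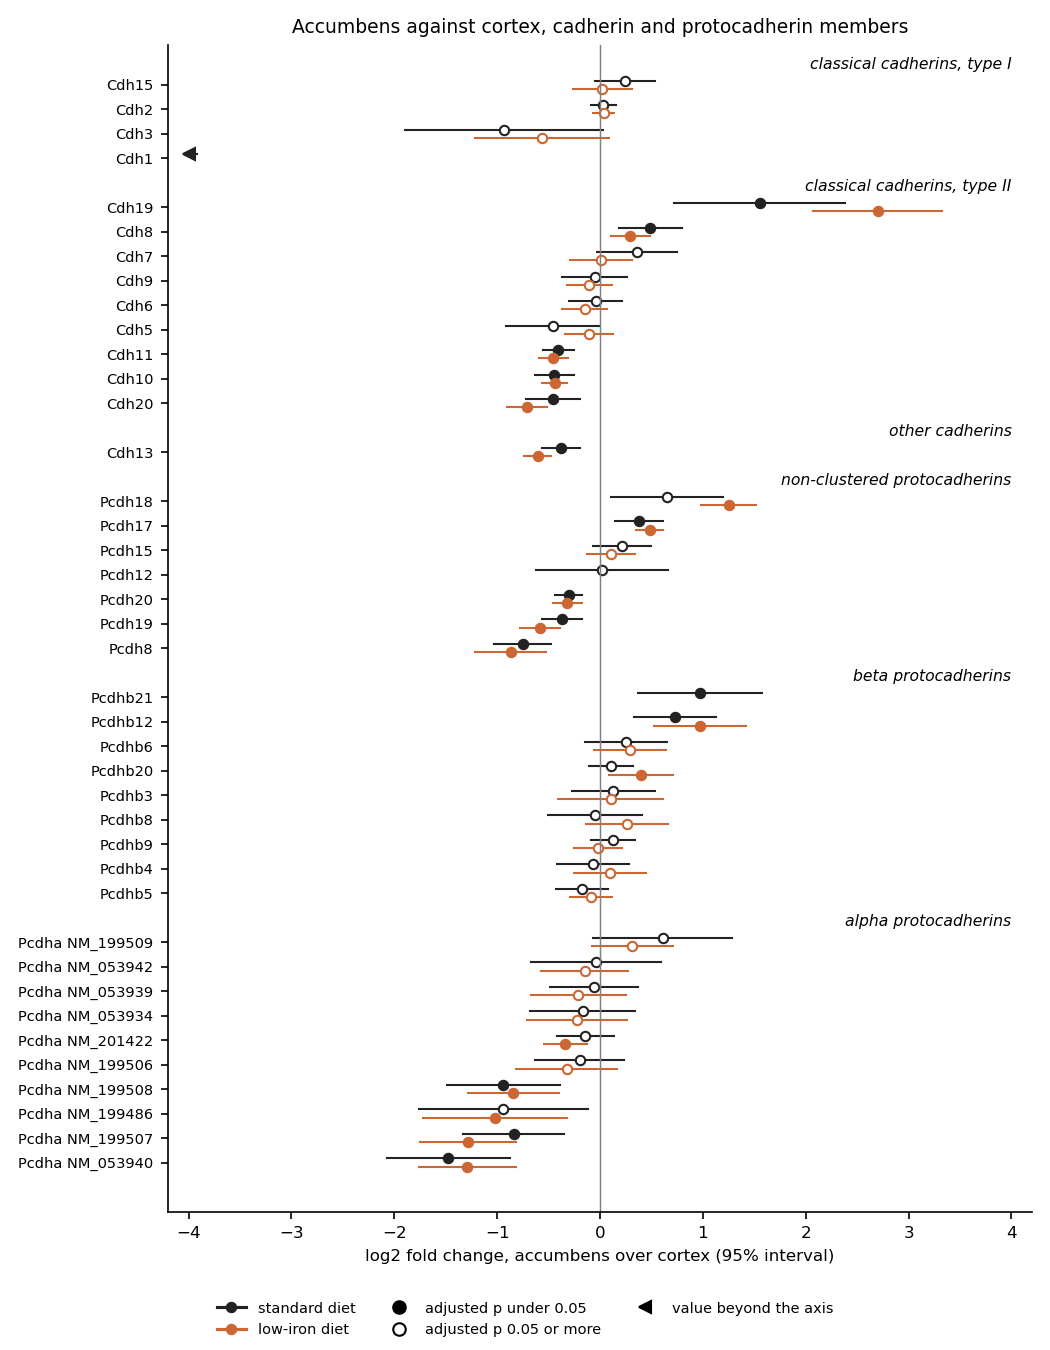
Log2 fold changes of the members, accumbens over cortex (x axis), with 95% intervals, for the standard diet (black) and the low-iron diet (orange), ordered by class. Filled points passed an adjusted p of 0.05. Cdh1 lies beyond the axis at -6.56, and Cdh19 lies farthest on the other side.

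Among type I classical cadherins, Cdh2, the N-cadherin of neuronal junctions and synapses, was not called between regions, and Cdh1, the E-cadherin of epithelial junctions, was lower in the accumbens with the standard diet, where it had at most 2 reads in a library. Cdh2 stood at 197 to 219 CPM in cortex and 195 to 233 CPM in accumbens with the standard diet, and at 210.04 to 225 and 205 to 235 CPM with the low-iron diet. Its regional log2 fold change was 0.03 (95% interval -0.09 to 0.16) with the standard diet and 0.04 (-0.07 to 0.14) with the low-iron diet. Its ranges in the 4 groups overlap throughout.

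Cdh1 varied widely between cortex libraries. It was at 8.28, 8.09, 12.8, 61.7 and 3.82 CPM in cortex replicates 1 to 5 with the standard diet, and at 1.45, 0.196, 2.36, 3.83 and 14.9 CPM with the low-iron diet. In the accumbens it had 1 or 2 reads per library with the standard diet (0.118 to 0.278 CPM) and 0 or 1 with the low-iron diet. Cortex replicate 4 was far above its group, and the standard-diet regions did not overlap.

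Summed over the standard-diet groups Cdh1 had 900 reads in cortex and 7 in accumbens, a ratio of 96.6 after scaling (95% exact interval 46.7 to 241, counting error only), and 45.3 (21.8 to 114) without cortex replicate 4. With the low-iron diet there were 229 and 2 reads, a ratio of 69.6 (19.0 to 578). The fitted log2 fold change with the standard diet was -6.56 (SE 1.18, adjusted p = 0.00129, edgeR), and -5.38 without cortex replicate 4 (adjusted p = 1.21e-06). With so few accumbens reads the fitted value depends on the prior count and is no bound.

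The level of Cdh1 moved with the meningeal and fibroblast markers. The summed level of those markers was 976, 1181, 1401, 8015 and 597 CPM in cortex replicates 1 to 5 with the standard diet and 382, 201, 476, 832 and 2006 CPM with the low-iron diet. It was 166 to 266 CPM in the accumbens. Of the 10 cortex libraries, 8 had the same rank in Cdh1 as in this sum, and the pair that traded places were standard-diet replicates 1 and 2.

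In cortex replicate 4 the marker sum was 5.72 times and Cdh1 4.82 times that of the next highest library of the group. All 10 markers with reads were highest there among the cortex libraries, and the other 2, Col1a2 and Ogn, had 0 reads in all 20 libraries. The levels of Aqp1 and Kcnj13, listed here as choroid plexus markers, were also highest there, at 118 and 21.4 CPM, and Ttr, the defining transcript of that epithelium, was at 0.67 CPM. Aqp4, Tac1 and Adora2a, which brain tissue of these regions expresses, also had 0 reads in all 20 libraries, so a 0 in these counts does not show that a gene was silent. The part of meningeal tissue in the Cdh1 difference was not tested.

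**Figure D2:**
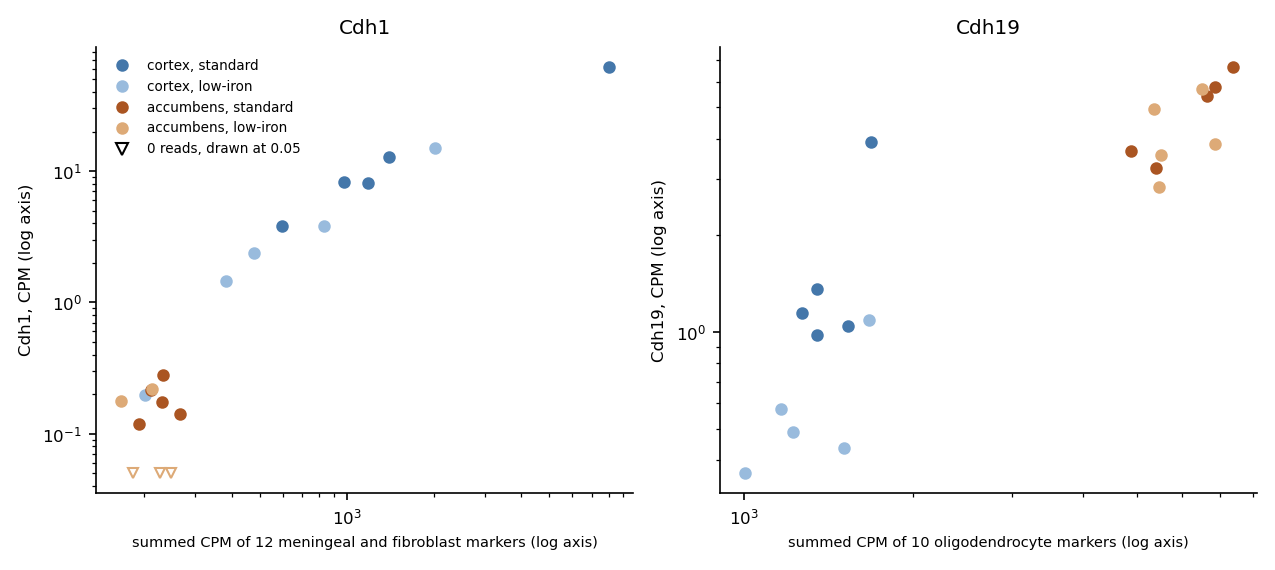
Left, Cdh1 level (CPM, log axis) against the summed level of 12 meningeal and fibroblast markers (CPM, log axis) in all 20 libraries, coloured by group, with open triangles for libraries at 0 reads. Right, Cdh19 level against the summed level of 10 oligodendrocyte markers. Cortex standard-diet replicate 4 is the highest point on the left, at 61.7 CPM, and the highest cortex point on the right, at 3.91 CPM.

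The other type I members had few reads, 3 to 48 per library for Cdh3 and 32 to 79 for Cdh15. Cdh3, the P-cadherin, was at 1.96, 1.76, 2.601, 5.36 and 1.15 CPM in standard-diet cortex and 0.865, 0.708, 2.13, 1.93 and 1.25 CPM in accumbens, with its highest value again in cortex replicate 4. It was not called (log2 fold change -0.93, adjusted p = 0.103, edgeR, and -0.52 without that library). Cdh15, the M-cadherin first known from muscle, was at 5.77 to 8.92 CPM in cortex and 7.35 to 8.91 CPM in accumbens and was not called either.

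Type II cadherins split by region. Cdh10, Cdh11 and Cdh20 were lower in the accumbens with both diets, Cdh8 and Cdh19 were higher, and Cdh5, Cdh6, Cdh7 and Cdh9 were not called. Type II cadherins sort neurons into groups and help to match synaptic partners. In all, 5 of 9 were called with each diet, beside 47.0% and 59.1% of all accessions, with a median of -0.05 with the standard diet and -0.11 with the low-iron diet.

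Cdh10 was at 97.6, 83.8, 94.3, 83.1 and 81.3 CPM in standard-diet cortex and 59.9, 54.1, 73.3, 70.04 and 66.7 CPM in accumbens. On the low-iron diet it was at 92.5, 98.3, 99.9, 86.5 and 93.6 and 69.6, 65.9, 68.5, 67.3 and 71.5 CPM. Each accumbens library was below each cortex library of its diet, and the log2 fold change was -0.45 (SE 0.09) and -0.44 (SE 0.06), with adjusted p = 0.00116 and 1.99e-06 in edgeR.

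Cdh11, a type II cadherin of neurons and of mesenchymal cells, was at 125, 126, 144, 118 and 129.8 CPM in standard-diet cortex and 108, 93.4, 102, 92.8 and 88.2 CPM in accumbens. The regions did not overlap with either diet, at -0.41 (SE 0.07) and -0.45 (SE 0.07). Its value in cortex replicate 4, the library with the high meningeal and low cortical neuron sums, was the lowest of its group, and the part of those cells was not tested.

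Cdh20 was at 37.5, 36.2, 31.3, 42.1 and 30.7 CPM in standard-diet cortex and 21.7, 22.1, 31.9, 28.02 and 26.4 CPM in accumbens. Accumbens replicate 3 lay above cortex replicates 3 and 5, so the standard-diet groups overlapped, whereas the low-iron groups, at 32.9 to 43.5 and 19.5 to 25.4 CPM, did not. The log2 fold changes were -0.46 (adjusted p = 0.00774, edgeR) and -0.71 (adjusted p = 2.67e-06).

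Cdh8, a synaptic cadherin, was at 45.5, 49.5, 57.3, 35.9 and 48.3 CPM in standard-diet cortex and 79.02, 69.05, 68.1, 47.1 and 68.2 CPM in accumbens. Accumbens replicate 4, the library with the high cortical marker sum, was the lowest of its group and lay within the cortex range. The log2 fold change was 0.49 (SE 0.14, adjusted p = 0.0129, edgeR), and with the low-iron diet it was 0.29 (SE 0.09, adjusted p = 0.00981). In a fit of all 20 libraries the low-iron call was lost (0.28, adjusted p = 0.0704).

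Cdh19, known from the Schwann cell lineage, had the largest log2 fold change of the class above 0. It was at 0.979, 1.36, 1.04, 3.91 and 1.15 CPM in standard-diet cortex and 3.24, 3.66, 6.67, 5.78 and 5.43 CPM in accumbens, where cortex replicate 4 alone overlapped the accumbens range. After the low-iron diet it was at 0.436, 0.489, 0.363, 0.574 and 1.09 CPM and 4.95, 3.56, 2.82, 3.84 and 5.703 CPM, without overlap. The log2 fold change was 1.55 (SE 0.38, adjusted p = 0.00559, edgeR) and 2.70 (SE 0.30, adjusted p = 3.39e-07). Without cortex replicate 4 the first was 2.08.

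Oligodendrocyte markers moved the same way as Cdh19 between regions. Their summed level was 1004 to 1679.8 CPM over the cortex libraries and 4872 to 7374 CPM over the accumbens libraries. Of the 10 markers, 9 were higher and 1 lower in the accumbens with each diet. Their part in the Cdh19 difference was not tested.

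The remaining type II members passed with neither diet. Cdh5, the VE-cadherin of endothelial junctions, was at 21.8, 23.9, 23.7, 40.8 and 16.1 CPM in standard-diet cortex and 16.8, 21.7, 17.4, 17.9 and 18.1 CPM in accumbens. Only cortex replicate 4 was clearly above the rest, and the log2 fold change was -0.46 (adjusted p = 0.0917, edgeR), or -0.23 without that library. Cdh6, Cdh7 and Cdh9 had log2 fold changes of -0.04, 0.36 and -0.05 with the standard diet (-0.15 for Cdh9 without cortex replicate 4) and -0.15, 0.01 and -0.10 with the low-iron diet.

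Of the other cadherins only Cdh13 had enough reads to test, and it was lower in the accumbens. Cdh13, the T-cadherin, is anchored to the membrane by a lipid and lacks the catenin-binding tail. It was at 181, 202, 189, 164 and 211 CPM in standard-diet cortex and 149, 132, 159.8, 126 and 159.6 CPM in accumbens. In the low-iron groups it was at 189.99, 226, 199, 220.5 and 196 and 141, 138, 123, 143 and 125 CPM.

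No accumbens library reached a cortex library of the same diet for Cdh13, and the log2 fold change was -0.38 (SE 0.08, adjusted p = 0.00281, edgeR) and -0.61 (SE 0.06, adjusted p = 1.07e-07). Cdh16 and Cdh17, the cadherins of kidney and intestine, had 2 reads each over all 20 libraries, and Cdh26 had 23 reads, with 4 at most in a library. These levels are at or under the floor of 3 reads in nearly every library, so no comparison was made.

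Non-clustered protocadherins also split. Pcdh8, Pcdh19 and Pcdh20 were lower in the accumbens with both diets and Pcdh17 was higher, while Pcdh18 was higher with the low-iron diet. Pcdh15 was not called with either diet, and neither was Pcdh12, which was tested with the standard diet only. In all, 4 of 7 were called with the standard diet, beside 47.0% of all accessions, and 5 of 6 with the low-iron diet, beside 59.1%.

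Pcdh8, an activity-induced protocadherin that draws N-cadherin away from the synaptic membrane, was at 183, 189, 169, 127 and 206 CPM in standard-diet cortex and 116, 107, 103, 82.1 and 109.7 CPM in accumbens. On the low-iron diet it was at 165, 243, 224, 199 and 139 and 103, 113, 88.4, 122 and 96.3 CPM. The regions did not overlap with either diet, and cortex replicate 4, which also had the lowest cortical neuron sum, was the lowest of the standard-diet cortex libraries. The log2 fold change was -0.75 (SE 0.13, adjusted p = 4.47e-04, edgeR) and -0.87 (SE 0.16, adjusted p = 6.53e-04).

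Pcdh19, the X-linked protocadherin that pairs with N-cadherin, was at 27.1, 33.2, 32.8, 25.9 and 31.99 CPM in standard-diet cortex and 22.9, 21.6, 25.4, 21.9 and 24.9 CPM in accumbens. Pcdh20 was at 65.4, 65.7, 67.3, 62.9 and 63.1 and 49.7, 57.01, 48.5, 57.8 and 49.96 CPM in the same groups. Neither overlapped between regions with either diet. The log2 fold changes were -0.37 and -0.58 for Pcdh19 and -0.30 and -0.32 for Pcdh20, standard diet first.

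Pcdh17, which organises presynaptic terminals in circuits between cortex and basal ganglia, was at 83.3, 94.7, 117, 79.8 and 104 CPM in standard-diet cortex and 134, 138, 123, 105 and 124 CPM in accumbens. Accumbens replicate 4 was the lowest of its group and lay inside the cortex range. With the low-iron diet the regions did not overlap, at 93.4 to 105 CPM in cortex and 125 to 155 CPM in accumbens. The log2 fold change was 0.38 (SE 0.11, adjusted p = 0.0121, edgeR) and 0.48 (SE 0.06, adjusted p = 2.35e-06).

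Pcdh18, which binds the reelin adaptor Dab1, was at 10.9, 11.7, 13.4, 25.4 and 9.81 CPM in standard-diet cortex and 18.6, 20.4, 28.4, 19.3 and 25.05 CPM in accumbens. Cortex replicate 4 alone lay within the accumbens range. The standard-diet difference just missed the threshold (0.65, SE 0.25, adjusted p = 0.0501, edgeR) and passed it without that library (0.95, adjusted p = 5.60e-05). With the low-iron diet Pcdh18 was at 10.03, 8.61, 13.99, 9.19 and 10.7 CPM in cortex and 27.03, 25.05, 19.7, 26.7 and 22.4 CPM in accumbens. That is 2.38 times higher in the accumbens, without overlap (log2 fold change 1.25, adjusted p = 1.03e-07).

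Pcdh15, a tip-link protein of hair cells, was at 9.43 to 13.5 CPM in cortex and 11.3 to 16.2 CPM in accumbens with the standard diet. Pcdh12, an endothelial protocadherin, had 4 to 23 reads per library and a log2 fold change of 0.02 (95% interval -0.62 to 0.66). A difference within that interval is not excluded by these counts.

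**Figure D3:**
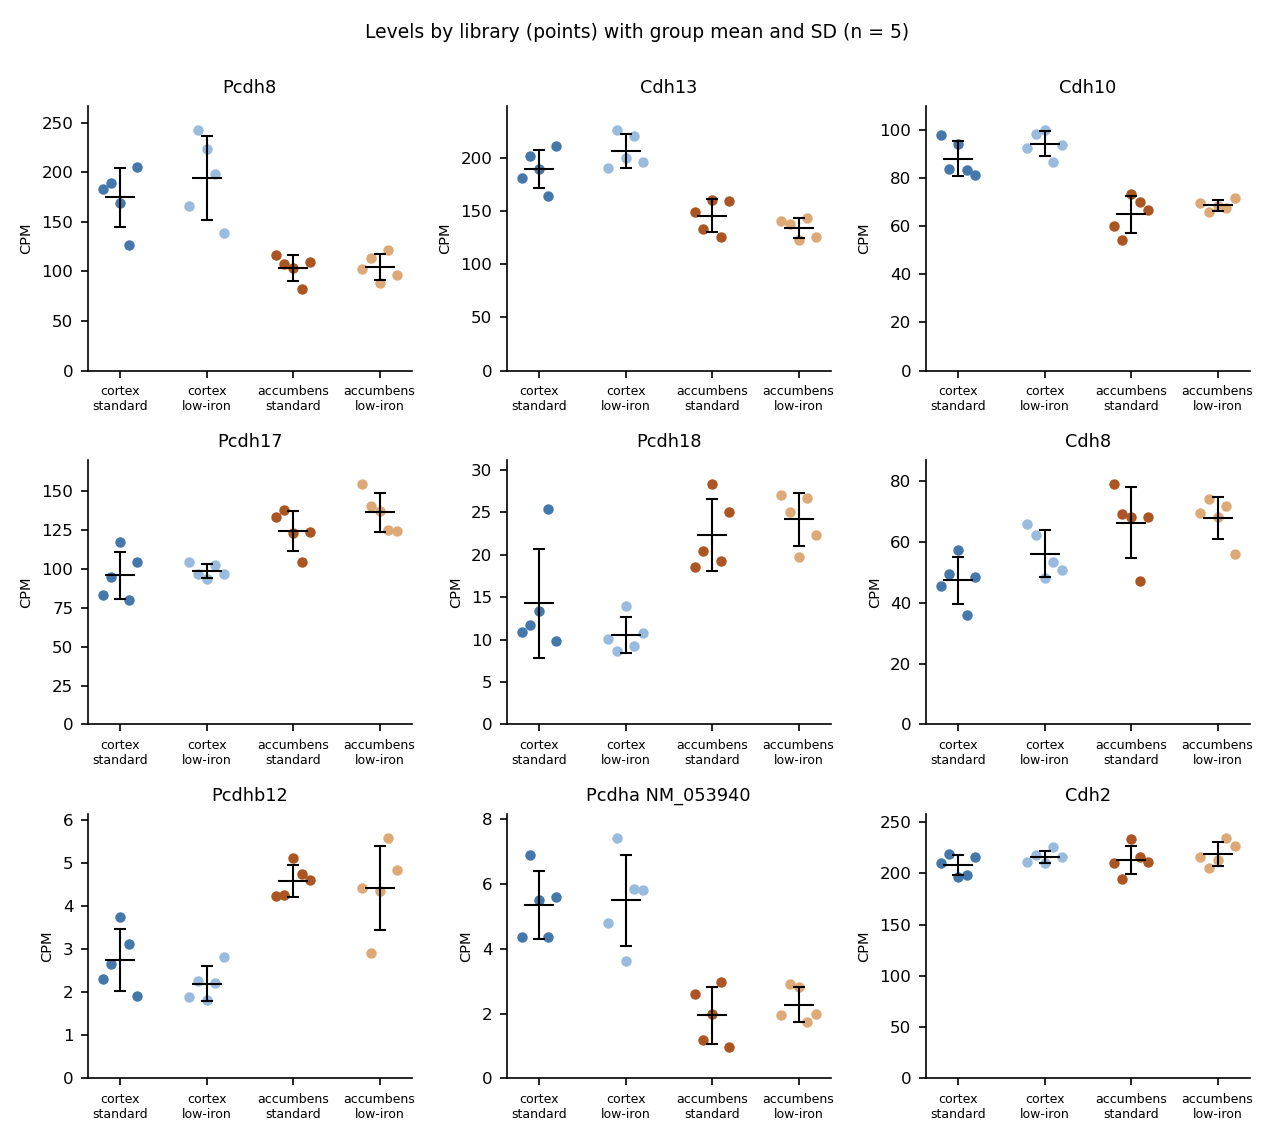
Levels (CPM, y axis from 0) of 9 members in each library (points), with the group mean and SD (black, n = 5). Pcdh8, Cdh13, Cdh10 and Pcdha NM_053940 were lower in both accumbens groups, Pcdh17, Cdh8 and Pcdhb12 were higher in both and Pcdh18 in the low-iron one, and the Cdh2 ranges overlap in all 4 groups.

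The beta protocadherins called between regions were Pcdhb12, Pcdhb21 and Pcdhb20. With the standard diet 2 of 9 tested were higher in the accumbens, Pcdhb12 and Pcdhb21, and none were lower, beside 47.0% of all accessions called in either direction. With the low-iron diet 2 of 8 were higher, Pcdhb12 and Pcdhb20, beside 59.1%. The median over the class was 0.13 and 0.18, and 6 of the members tested lay above 0 with each diet.

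Pcdhb12 was at 2.31, 2.64, 3.75, 3.12 and 1.91 CPM in standard-diet cortex and 4.22, 4.25, 5.11, 4.73 and 4.59 CPM in accumbens. After the low-iron diet it was at 1.89, 2.25, 1.82, 2.202 and 2.82 and 4.42, 2.91, 4.34, 5.58 and 4.83 CPM. The regions did not overlap with either diet, at 0.73 (SE 0.18, adjusted p = 0.00623, edgeR) and 0.97 (SE 0.21, adjusted p = 6.66e-04). Pcdhb12 had 10 to 39 reads per library.

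Pcdhb21 had only 2 to 18 reads per library. It was at 0.623, 1.12, 1.14, 1.23 and 0.5098 CPM in standard-diet cortex and 1.62, 2.12, 1.56, 2.45 and 1.53 CPM in accumbens, without overlap (log2 fold change 0.97, SE 0.28, adjusted p = 0.0125, edgeR). Several of these libraries lie near the floor of 3 reads. Pcdhb20 was at 4.99 to 7.99 CPM in low-iron cortex and 7.803 to 10.6 CPM in low-iron accumbens (0.40, adjusted p = 0.0258, edgeR).

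The other beta members tested, Pcdhb3, Pcdhb4, Pcdhb5, Pcdhb6, Pcdhb8 and Pcdhb9, were called with neither diet. Pcdhb9 was at 18.1 to 19.5 CPM in cortex and 16.3 to 23.6 CPM in accumbens with the standard diet. Pcdhb5 was at 13.9 to 16.2 and 10.02 to 16.3 CPM. Beta genes resemble each other closely, and reads that mapped to several places (8.10 to 9.09% of reads per library) are in no member's count, so a beta level counts only the reads that fell in places unique to that gene.

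The members among the alpha protocadherins that passed the test were lower in the accumbens, while an alpha accession outside the rule, described further on, was higher. With the standard diet 3 of the 10 members were lower and none were higher, beside 24.0% and 23.0% of all accessions, and 9 of 10 were below 0, with a median of -0.18. With the low-iron diet 5 of 10 were lower, beside 29.0%, and again 9 were below 0, with a median of -0.33. The accession above 0 was NM_199509 with both diets (0.61 and 0.32, not called).

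Pcdha NM_053940 was at 4.36, 6.89, 5.51, 4.35 and 5.61 CPM in standard-diet cortex and 2.59, 1.18, 1.99, 2.98 and 0.974 CPM in accumbens. In the low-iron groups it was at 4.797, 7.44, 3.63, 5.84 and 5.82 and 1.94, 2.91, 2.82, 1.74 and 1.97 CPM. The regions did not overlap, and the log2 fold change was -1.47 (SE 0.27, adjusted p = 8.26e-04, edgeR) and -1.29 (SE 0.22, adjusted p = 7.74e-05).

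Pcdha NM_199507 was at 5.696, 7.69, 5.31, 4.69 and 6.76 CPM in standard-diet cortex and 3.46, 4.25, 1.702, 3.33 and 4.04 CPM in accumbens. Pcdha NM_199508 was at 5.16, 4.97, 5.31, 5.02 and 4.84 and 2.702, 3.42, 0.993, 3.85 and 2.23 CPM in these groups. Neither overlapped between regions with either diet. The log2 fold changes were -0.84 and -1.28 for NM_199507 and -0.94 and -0.84 for NM_199508, each with an SE of 0.21 to 0.25.

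Pcdha NM_199486 was at 2.31, 3.604, 1.66, 2.68 and 2.68 CPM in standard-diet cortex and 1.41, 2.12, 0.851, 2.101 and 0.278 CPM in accumbens, in overlapping groups. It did not pass with the standard diet (-0.94, adjusted p = 0.0585, edgeR) and passed without accumbens replicate 4, the library with the high cortical sum (-1.11, adjusted p = 0.0468). On the low-iron diet it was lower in the accumbens (-1.02, adjusted p = 0.0132).

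A single accession, NM_201422, held most of the alpha reads. Its share of the reads of the 10 accessions was 53.5% ± 2.46 (SD, n = 5) in standard-diet cortex and 59.6% ± 4.76 in standard-diet accumbens, and 55.1% ± 2.06 and 59.0% ± 3.57 with the low-iron diet. The other 9 held 0.505 to 9.18% each in any library. NM_201422 was at 44.1, 47.6, 43.6, 28.3 and 44.99 CPM in standard-diet cortex and 38.05, 40.5, 39.6, 39.4 and 32.01 CPM in accumbens, with the lowest value of all cortex libraries in replicate 4, where the cortical neuron sum was lowest too.

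With the standard diet NM_201422 was not called between regions (-0.14, adjusted p = 0.378, edgeR), and it was lower in the accumbens without cortex replicate 4 (-0.25, adjusted p = 0.00849) and with the low-iron diet (-0.34, adjusted p = 0.00731). The alpha accessions share their last exons, and a read there cannot be told to belong to one of them. Reads listed as ambiguous made up 3.61 to 4.23% of reads per library, and how they divide among genes was not analysed here. How the shared exons were counted was not tested, so shares between alpha accessions describe these counts. The differences rest on few reads: NM_053940 had 7 to 86 per library, NM_199507 had 8 to 96, NM_199508 had 7 to 65 and NM_199486 had 2 to 45, whereas NM_201422 had 132 to 595.

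**Figure D4:**
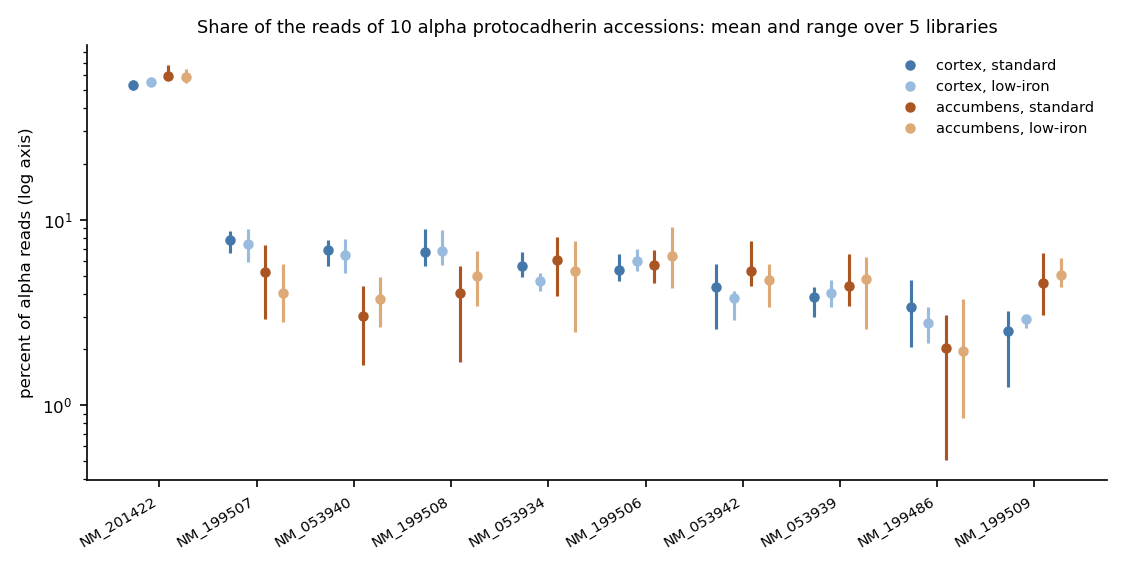
Percent of the reads of the 10 alpha accessions that each held (log axis), as the mean (point) and range (line) over the 5 libraries of each group. NM_201422 holds over 50% in every library, and the shares of NM_053940, NM_199507 and NM_199508 are lower in the accumbens groups.

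The 20 accessions outside the rule add the gamma array. With the standard diet 5 of the 19 tested were higher in the accumbens and 2 lower, beside 47.0% of all accessions called in either direction. With the low-iron diet 6 were higher and 4 lower, beside 59.1%. Of 12 gamma accessions tested, Pcdhgb8 and Pcdhga11 were lower and Pcdhga10 and Pcdhgb7 higher in the accumbens with both diets. Pcdhgb8 was at 17.6, 18.1, 19.9, 16.3 and 18.4 CPM in standard-diet cortex and 8.32, 10.7, 8.65, 10.5 and 9.46 CPM in accumbens, and its log2 fold change was -0.92 with the standard and -0.93 with the low-iron diet. Pcdhgc3, which held most of the gamma reads, was at -0.10 and 0.00 and was not called. Gamma genes share their last exons as the alpha genes do.

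Others outside the rule differed in both directions. Pcdha4 NM_053933, the alpha accession with a name of its own in the RefSeq table, was higher in the accumbens with the standard diet (0.56, adjusted p = 0.00596, edgeR), unlike 9 of the 10 alpha members, and was not called with the low-iron diet (0.30). Pcdhb10, another beta gene, was higher with both diets (0.48 and 0.52). Pcdh9 was lower with the low-iron diet (-0.37) and at -0.14, not called, with the standard diet. Pcdh11x, on the X chromosome, was higher with the standard diet (0.61) and at 0.32, not called, with the low-iron diet. Pcdh7 was at 0.02 and 0.00.

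The classes were also added up. The summed level of the 10 alpha accessions was 77.7 ± 12.5 CPM (SD, n = 5) in standard-diet cortex and 63.8 ± 6.95 CPM in accumbens, and 84.1 ± 9.31 and 61.7 ± 7.34 CPM with the low-iron diet. The 10 beta members summed to 66.7 ± 1.75 and 70.5 ± 4.53 CPM with the standard diet, and to 66.5 ± 3.65 and 72.3 ± 6.03 CPM with the low-iron diet. The accumbens-to-cortex ratio was thus 0.821 and 0.733 for alpha against 1.06 and 1.09 for beta.

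Type II cadherins summed to a ratio of 0.873 and 0.829, and non-clustered protocadherins to 0.869 and 0.848, standard diet first. Scaling by plain read totals in place of TMM raised the median accumbens-to-cortex log2 ratio of all accessions by 0.11 with the standard diet and by 0.15 with the low-iron diet. The alpha ratio was then 0.889 and 0.814 and the beta ratio 1.14 and 1.21. The sums of all 20 clustered members had a ratio of 0.930 with TMM and 1.01 with plain totals for the standard diet, so their direction depends on the scaling.

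The partners of these proteins were examined as lists. Of 22 catenins and other junction partners tested, 2 were higher and 10 lower in the accumbens with the standard diet, and 5 and 12 with the low-iron diet (median -0.18 and -0.19). Of all accessions, 47.0% and 59.1% were called. Nectin1, an adhesion protein of the same junctions, was at -1.91 with the standard and -2.26 with the low-iron diet, and Magi1, a junctional scaffold, was at -0.61 with the standard diet. Ctnnd2, the neuronal delta-catenin, was at -0.73 with the low-iron diet. Each passed the threshold.

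Of 14 signalling partners of protocadherins, such as members of the WAVE complex that builds actin branches, 1 was higher and 7 lower with the standard diet (all accessions 47.0%), and 2 and 8 with the low-iron diet (59.1%). Marcks, a membrane-bound actin regulator, was at 0.52 and 0.65, Brk1 at -0.46 with the standard diet and Cyfip2 at -0.90 with the low-iron diet. Of 13 regulators of the clusters tested, 3 were higher and 1 lower with the standard diet (47.0%), and 6 and 1 with the low-iron diet (59.1%). Setdb1, a histone methyltransferase, was at 0.41 with the standard diet, the cohesin subunit Smc3 at 0.38 and 0.60, and Stag2 at 0.59 with the low-iron diet.

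Among other members of the cadherin superfamily, 3 of 11 tested were higher and 6 lower with the standard diet (all accessions 47.0%), and 4 and 5 of 10 with the low-iron diet (59.1%). Fat3 was at 0.83 with the standard diet, Fat1 at 1.06 with the low-iron diet, and the calsyntenin Clstn1 at -1.04 and -1.25. Fat1 and Fat3 are giant atypical cadherins.

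The second comparison asked whether the early low-iron diet was followed by a difference in adulthood. In the accumbens 0 of 37 members tested passed the adjusted threshold in edgeR or in DESeq2, as did 0.0% of all 11202 accessions in edgeR. At an unadjusted p under 0.05 there was 1 member, Cdh15, beside 4.05% of all accessions. The median log2 fold change, low-iron over standard, was 0.01 over the members and 0.00 over all accessions.

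Cdh15 was the only member whose diet groups did not overlap, in a comparison where 0.946% of all accessions had such groups. It was at 7.999, 8.498, 8.79, 7.35 and 8.91 CPM in accumbens with the standard diet and 6.54, 5.66, 7.15, 6.62 and 7.02 CPM with the low-iron diet. Every low-iron library was below every standard-diet library, and the log2 fold change was -0.34 (SE 0.13, unadjusted p = 0.0164, adjusted p = 0.972, edgeR). In cortex the same accession was at 7.03, 5.77, 7.49, 6.14 and 8.92 and 7.12, 6.95, 5.996, 5.74 and 6.82 CPM, with wide overlap (-0.12).

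The other accumbens members with the lowest p did not pass either. Above 0 were Pcdhb5 (0.24, 95% interval -0.03 to 0.50), Pcdh17 (0.13, -0.03 to 0.29) and Pcdhb20 (0.17, -0.09 to 0.42). Below 0 were Cdh13 (-0.12, -0.27 to 0.04) and Pcdh15 (-0.18, -0.43 to 0.07). These values depended on single libraries: Pcdh17 was at 0.07 without accumbens standard-diet replicate 4, Pcdh15 at -0.10 without standard-diet replicate 3, Pcdhb5 at 0.15 without standard-diet replicate 5 and Pcdhb20 at 0.10 without low-iron replicate 4. Pcdhb5 was at 16.3, 12.6, 13.9, 13.3 and 10.02 CPM with the standard diet and 16.6, 14.7, 16.7, 16.7 and 13.6 CPM with the low-iron diet, in overlapping groups.

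For members with many reads the intervals were narrow. Cdh2 was at 0.04 (-0.08 to 0.16), Cdh11 at 0.01 (-0.14 to 0.16) and Pcdh20 at 0.02 (-0.14 to 0.17) in the accumbens. Cdh10 was at 0.09 (-0.08 to 0.25). For the alpha accessions they were wide, as for NM_053940 at 0.25 (-0.41 to 0.90), or 0.41 without standard-diet replicate 4. A change within those bounds is not excluded by these counts.

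In the prefrontal cortex 0 of 40 members passed in edgeR or DESeq2, beside 0.0% of 11662 accessions. Cdh19 and Cdh5 had an unadjusted p under 0.05, 2 members of 40, beside 5.99% of all accessions. No member had diet groups without overlap, against 1.27% of all accessions. The median over the members was 0.03.

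Cdh19 was at 0.979, 1.36, 1.04, 3.91 and 1.15 CPM with the standard diet and 0.436, 0.489, 0.363, 0.574 and 1.09 CPM with the low-iron diet. Low-iron replicate 5 lay above standard-diet replicates 1 and 3, and standard-diet replicate 4 was far above the rest. The log2 fold change was -1.41 (SE 0.48, unadjusted p = 0.0109, adjusted p = 0.683, edgeR) and -0.85 without standard-diet replicate 4 (unadjusted p = 0.0255).

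Cdh5 was at 21.8, 23.9, 23.7, 40.8 and 16.1 CPM with the standard diet and 16.9, 15.2, 19.1, 19.1 and 21.02 CPM with the low-iron diet, at -0.49 (unadjusted p = 0.0455, edgeR), or -0.25 without standard-diet replicate 4. The summed level of 10 other endothelial markers was 639.99, 614, 644, 608 and 530.5 CPM with the standard diet and 496, 495, 596, 522 and 524 CPM with the low-iron diet. Of those markers 9 were below 0, 7 had an unadjusted p under 0.05, beside 5.99% of all accessions, and none passed the adjusted threshold. Standard-diet replicate 4, which had the highest Cdh5, was not high in this sum. Among these markers only Kdr was far above the rest of the group there, at 49.8 CPM against 23.5 to 34.6 CPM. The summed level of 9 mural cell markers in that library was 630.04 CPM against at most 368 CPM in its group. Acta2, Tagln, Myh11, Vtn and Pdgfrb were highest of the group there, while Rgs5, Kcnj8, Abcc9 and Cspg4 were not. The part of these cells in the Cdh5 difference was not tested.

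Cdh1 was lower in 4 of 5 low-iron cortex libraries than in standard-diet replicates 1 to 4, and the difference did not pass (-1.98, SE 1.04, 95% interval -4.36 to 0.39, unadjusted p = 0.0911, edgeR). Without standard-diet replicate 4 it was -0.76, and without low-iron replicate 5 it was -3.28 (adjusted p = 0.6403). Each of these 2 libraries thus moved the value by more than 1.5 times. The meningeal sums given above moved the same way, with 10 of 10 markers tested below 0 and none called, and their part was not tested.

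The remaining cortex members with the lowest p were Pcdhb8 (-0.33, 95% interval -0.69 to 0.04), Cdh8 (0.23, -0.02 to 0.48), Pcdhb5 (0.16, -0.02 to 0.33) and Pcdh19 (0.16, -0.03 to 0.36). Pcdhb8 was at -0.21 without standard-diet replicate 5 and Pcdh19 at 0.11 without low-iron replicate 3. Pcdhb5 was above 0 in both regions. The 2 diet comparisons share no library, but the labels do not say whether they share animals. Cdh8 was at 45.5, 49.5, 57.3, 35.9 and 48.3 CPM with the standard diet and 65.8, 62.2, 48.1, 53.4 and 50.8 CPM with the low-iron diet, in overlapping groups.

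**Figure D5:**
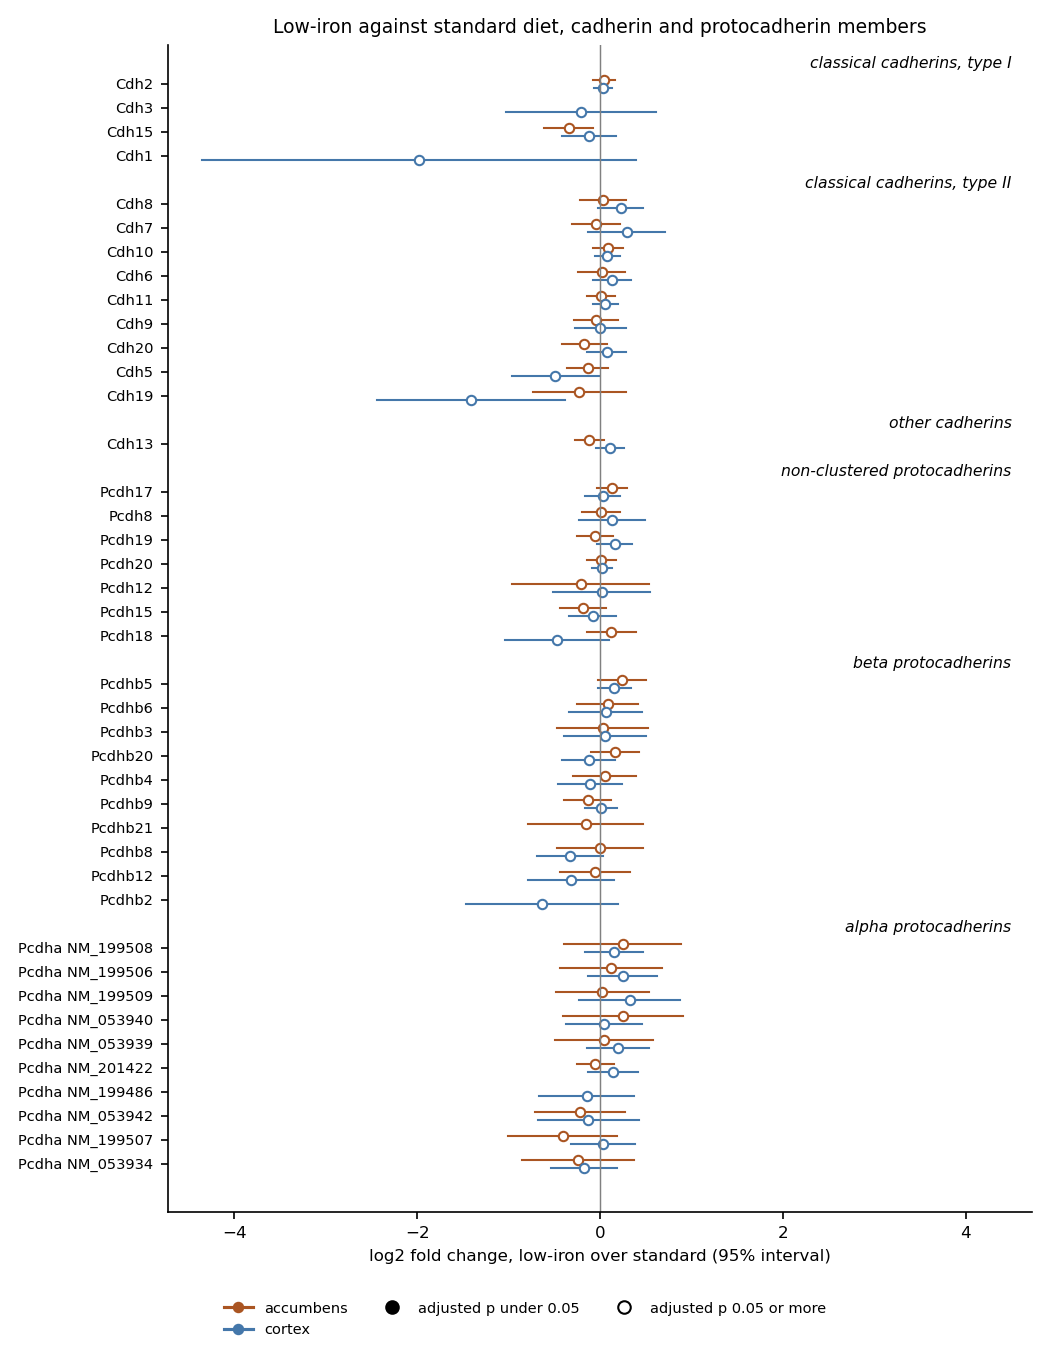
Log2 fold changes of the members, low-iron over standard diet (x axis), with 95% intervals, in accumbens (brown) and cortex (blue). All points are open, since none passed an adjusted p of 0.05, and the widest interval belongs to Cdh1 in cortex (-4.36 to 0.39).

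The partner lists showed no diet call in either region. In the accumbens the members of each list with the lowest unadjusted p were Magi1 (-0.18), Marcks (0.16), the cohesin subunit Stag1 (0.27) and Celsr3 (0.12). In cortex they were Magi2 (0.18), Nlgn1 (0.23), Stag2 (-0.15) and Clstn3 (0.19). Among the signalling partners 13 of 14 were above 0 in each region, with medians of 0.06 and 0.08 beside 0.00 over all accessions in each.

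An interaction term over all 20 libraries compared the diet difference of the accumbens with that of the cortex, and 0 of 41 members passed in edgeR or DESeq2, beside 0.0% of 11788 accessions. At an unadjusted p under 0.05 there were 2 members, Cdh13 and Cdh19, beside 5.36% of all accessions. For Cdh13 the low-iron difference had a log2 difference of -0.24, accumbens minus cortex (SE 0.11, unadjusted p = 0.0355, adjusted p = 0.818, edgeR). Its diet differences were -0.12 in the accumbens and 0.11 in the cortex (0.07 without cortex standard-diet replicate 4).

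For Cdh19 the interaction was 1.15 (unadjusted p = 0.0414, edgeR) and 0.61 without cortex standard-diet replicate 4 (unadjusted p = 0.1703). For Pcdh18 it was 0.58 (unadjusted p = 0.0671, edgeR) and 0.28 without that library. Both values fell by more than 1.5 times when that library was left out. For Cdh2 the interaction was -0.01, with a 95% interval of -0.16 to 0.14.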

How the data were processed

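Poly(A) RNA was sequenced as 75 bp single reads from 20 libraries. The authors deposited raw read counts per RefSeq accession, and per the submitters' processing notes the tools included STAR, HTSeq, Trimmomatic 0.36.3, DESeq and DESeq2, on build rn6. The unstranded count column was used, since 49.6 to 50.01% of stranded counts fell on the first strand, so overlapping antisense transcripts cannot be told apart. Rows that name no gene held 50.8 to 60.7% of reads and were left out. Assigned reads were 4340205 to 12971736 per library, and intervals and floors cover counting error only.

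Each comparison was fitted over all accessions with edgeR 4.0.16 in R 4.3.3 (TMM, filterByExpr with a minimum count of 10, robust quasi-likelihood test, Benjamini-Hochberg threshold 0.05), after tests on simulated data. Each SE came from the F statistic (log2 fold change over its root). CPM used TMM factors over all 20 libraries. DESeq2 1.42.0, other scalings and filters, left-out libraries and a replicate block were alternatives. No 2 libraries of a group were duplicates (lowest chi-square per degree of freedom 1.97 over 40 pairs). Promoter windows came from RefSeq on GRCr8, with no conversion from rn6.

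Members, gene lists and marker lists were chosen with earlier results of these data known. Members named by rule were, in each class, up to 3 with the largest absolute log2 fold change in each direction among those passing with the standard diet at 1 CPM or more in the higher group. For each diet comparison they were, separately above and below 0, the 3 of lowest unadjusted p, and any whose groups did not overlap, for the interaction the 3 with the lowest p, and always Cdh1 and Cdh2. Partner lists were named by the 2 lowest p per list and comparison. Other members were named after their values were seen.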

Additional observations from a re-analysis of the deposited data

Results flagged for a closer look

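In 8 of the 96 groups of 5 libraries examined for the 24 members named by rule, 1 library lay far from the others of its group. Chance gives about 4.8 at 1 in 20, but these members were partly named by their values and share the same libraries. Cortex standard-diet replicate 4 was such a library for Cdh1 at 61.71 CPM, for Cdh19 at 3.906 CPM and for Pcdh18 at 25.44 CPM. Cortex low-iron replicate 5 was one for Cdh1 at 14.92 CPM and for Cdh19 at 1.092 CPM. Cortex low-iron replicate 2 stood apart for Pcdhb20 at 4.991 CPM, accumbens standard-diet replicate 2 for Cdh5 at 21.72 CPM, and accumbens low-iron replicate 2 for Pcdh15 at 13.25 CPM. The 2 libraries that stood apart for Cdh1 and Cdh19 are also those with the highest meningeal marker sums of their groups, and the part of those cells was not tested.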

How the results depend on the processing

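Of 1142 values compared under the alternatives, 1121 kept their direction and their side of the threshold or their size. These values do not cover every member in every comparison. The standard-diet region calls of Pcdh18, NM_199486 and NM_201422 changed without 1 library, as given above, and are not among the changed values. The count of called members was 16 with the standard diet (17 with DESeq2, 21 in a fit of all 20 libraries, 16 to 18 leaving out each library in turn) and 18 with the low-iron diet (19 with DESeq2, 20 with no count filter, 17 to 19 leaving out each library). It was 0 for both diet comparisons and the interaction in every setting run. DESeq2 called 1 accession of all in the accumbens diet comparison, and edgeR 0.

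The call of Cdh8 with the low-iron diet was lost in the fit of all 20 libraries (0.28, adjusted p = 0.0704), and the cause was not tested. Uncalled values near 0 changed sign when a library was left out. For Cdh2, region, standard diet, the value was -0.000326 without accumbens standard-diet replicate 3 (range over left-out libraries to 0.083). For Cdh1, diet by region interaction, it was -0.39 without cortex standard-diet replicate 4 (range to 2.103). For Cdh2, diet by region interaction, it was 0.0066 and 0.0034 without cortex standard-diet replicates 3 and 4, 0.0032 without cortex low-iron replicate 4, 0.022 without accumbens standard-diet replicate 3 and 0.011 without accumbens low-iron replicate 2 (lowest -0.039).

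Plain totals moved 12 class ratios beyond 1 SD, among them type I with the low-iron diet (0.992 to 1.101) and the gamma sum (0.981 to 1.09). Depth left Cdh16, Cdh17 and Cdh26 (2, 2 and 23 reads in all) untested in every comparison, and Pcdhb2 in both region comparisons.

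Replicate numbers are shared between groups, but the labels do not say whether same-numbered libraries share an animal. The numbers were therefore not taken as pairs. In the region comparisons 0 and 2 of 5 same-numbered pairs had a correlation over 0.1, standard diet first. In the diet comparisons 2 and 3 of 5 had one, accumbens first. With a replicate block the counts of called members were 19 and 20 for the region comparisons and 0 for the others, also with the block nested within diet, an alternative chosen after seeing the data. With the standard diet 3 of 5 cortex and 2 of 5 accumbens libraries correlated best with their own number in the other region. With the low-iron diet 3 of 5 did so in each region. Between diets it was 1 and 0 of 5 in the accumbens, standard diet first, and 1 and 1 of 5 in the cortex. Whether the regions share animals was not settled.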
